A study of Mus musculus with 6 samples.

Results

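Gas5, Snhg1, Snhg3, Snhg5, Snhg6, Snhg8 and Snhg12 are host genes of small nucleolar RNAs, and Malat1 and Neat1 are long noncoding RNAs that stay in the nucleus. These 9 genes were taken by symbol, matched to NCBI gene numbers, out of 16749 gene numbers listed in at least 1 library. The rule that takes them uses no measured value, but they were chosen with earlier results of these data known. The cells were CD8+ T cells, obtained by flow cytometric sorting of a tissue that the labels give as iLN, from C57BL/6 mice. Per the series title these mice carried tumors and were treated with oxaliplatin, a DNA-damaging platinum drug. Both groups carried floxed Id2 alleles: 3 libraries came from Id2f/f mice without Cre, called WT, and 3 from Cd4creId2f/f mice, called knockout here. The Cd4 promoter drives Cre in developing T cells of the alpha beta lineage, so other cell types in a sort would keep Id2. Cre was present only in the knockout, and effects of Cre and of losing Id2 cannot be told apart. The labels give no age, drug dose or tumor type and do not say which animals the samples came from, so that the p-values rest on a spread between samples that may be technical.

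A small nucleolar RNA host gene is transcribed and spliced, and the small RNAs are cut out of its introns to guide chemical modification of ribosomal RNA. The spliced host RNA is left over, is exported and, in Gas5 and many other hosts, is broken down by nonsense-mediated decay while it is translated. Many hosts start with a run of pyrimidines, the 5′ terminal oligopyrimidine (TOP) element that ribosomal protein mRNAs also carry, and Gas5 takes its name from its accumulation in growth-arrested cells. Malat1 sits in nuclear speckles, where splicing factors gather, and a small RNA like a tRNA is cut from its end. Neat1 makes a short polyadenylated transcript and a long one, and the long one is the scaffold of paraspeckles, nuclear bodies that hold RNA-binding proteins. Id2 binds E proteins, transcription factors that recognise CANNTG (the E box), and keeps them off DNA.

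The starts of the host genes show which of them carry a pyrimidine run. Sequence was available for 8 promoters of 7 of the genes in the RefSeq table of GRCm38.p6, the assembly of mm10. Each line gives 10 bases before and 20 bases from the annotated start, read 5′ to 3′ on the gene's strand, with the longest unbroken run of C and T in capitals. Coordinates are those of the printed bases.
Gas5 (downstream start, chr1:161035156-161035185, plus strand): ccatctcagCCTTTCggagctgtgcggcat
Gas5 (upstream start, chr1:161034591-161034620, plus strand): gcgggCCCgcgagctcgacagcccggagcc
Snhg1 (chr19:8723477-8723506, plus strand): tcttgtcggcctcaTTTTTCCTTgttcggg
Snhg3 (chr4:132353667-132353696, minus strand): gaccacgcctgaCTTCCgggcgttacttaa
Snhg5 (chr9:88522878-88522907, minus strand): gcggtgaaccgggctcgTTCTTTTacgacg
Snhg8 (chr3:123508317-123508346, minus strand): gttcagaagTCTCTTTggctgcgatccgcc
Snhg12 (chr4:132308668-132308697, plus strand): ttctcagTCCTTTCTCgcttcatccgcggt
Malat1 (chr19:5802653-5802682, minus strand): ggCTCTgcgtcaggcattcaggcagcgaga

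The runs were 9 bases long in Snhg1 and Snhg12, 7 in Snhg5 and Snhg8, 6 at the downstream start of Gas5 and 5 in Snhg3. Malat1 had a run of 4 bases and the upstream start of Gas5 one of 3. Among 32851 promoters of the same table, 7.11% had a run of at least 9 bases in this window, 17.9% one of at least 7, 28.7% one of at least 6 and 46.4% one of at least 5. Of 72 ribosomal protein promoters 47.2% reached 7 bases and 66.7% reached 5. In Snhg8 and at the downstream start of Gas5 the run began 1 base before the annotated start, and in Snhg12 it began 3 bases before. In Snhg3, Snhg1 and Snhg5 the run began inside the transcript and not at its first base, at bases 3, 5 and 8 in that order. An E box (CANNTG, searched on both strands of the 300 base promoters) was present in 72.3% of all promoters. Those of Snhg1, Snhg3, Snhg5 and Snhg8 and the downstream one of Gas5 held no such letters. Snhg12 held CAGTTG 187 bases and CAGGTG 69 bases before its start. The upstream Gas5 promoter held CAGATG 203 bases and CAGGTG 146 bases before the start, and Malat1 held CAGCTG 41 bases past its start. CAGGTG or its complement occurred in 20.2% and CAGCTG in 16.3% of all promoters. A match of letters is a description and not a measured site.

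Levels are FPKM, reads scaled to transcript length and library size, given for replicates 1 to 3 of a group and then as the mean ± SD over its 3 libraries. Tests are the quasi-likelihood test of edgeR on expected counts over the 10890 genes that passed a filter on low values, with a threshold of 0.05 on the adjusted p, and log2 fold changes are knockout over WT. In bulk RNA, fewer cells of a type and less RNA per cell cannot be told apart. The WT libraries held 8307284 to 8495123 expected counts and the knockout libraries 7699181 to 7990095. Id2 had 370.98, 146.76 and 149.01 FPKM in the WT libraries (222 ± 129), with WT replicate 1 well above the others. The knockout libraries had 1.67, 2.64 and 2.12 (2.14 ± 0.485). The log2 fold change of Id2 was -6.72 (edgeR adjusted p = 8.47e-05), which goes with the labels. Of 9 CD8 T cell markers 0 passed by edgeR or DESeq2 and 1 had an unadjusted p under 0.05, and Cd8a was at 212 FPKM in WT and 214 in knockout. Transcripts of B cells set the libraries apart and followed genotype only in part. The 14 listed B cell markers summed to 953.8, 3186 and 3709 FPKM in the WT libraries and to 698.6, 3022 and 630.9 FPKM in the knockout libraries. WT replicate 1 was thus with knockout replicates 1 and 3. The median log2 fold change of the 13 that were tested was -0.87, and 0 of them had one above 0. Of these 13, 0 passed by edgeR or DESeq2 and 0 had an unadjusted p under 0.05, while without knockout replicate 2 edgeR called 12 lower. Of 30 cell cycle genes 29 fell in the knockout by edgeR (median log2 fold change -2.20), where 8.77% of all tested genes fell. The summed FPKM of the 30 was 2886, 2633 and 3397 in the WT libraries and 1307, 1364 and 1198 in knockout.

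All 9 noncoding RNAs passed the filter and were detected in every library. Neat1 rose in the knockout, and the other 8 did not pass the test. The count called higher was 1 of 9, where 3.14% of all tested genes were called higher, and 0 were called lower, where 8.77% of all genes were. Neat1, Malat1, Snhg8 and Snhg12 lay higher in every knockout library than in every WT library, 4 of 9, against 15.3% of all tested genes. None of the 9 lay lower in this sense, against 16.8% of all genes. Other tests called more of them higher: DESeq2 called 5 (Gas5, Snhg8, Snhg12, Malat1 and Neat1, with 4.54% of all genes), limma on log2(FPKM + 1) called 3 (Snhg8, Snhg12 and Neat1, with 2.66% of all genes), and edgeR without the filter on low values called 4 (Gas5, Snhg8, Snhg12 and Neat1, with 2.57% of all genes). The log2 fold change was above 0 in 8 of 9, against 51.9% of all genes, and the median of the 9 was 0.34, against 0.01 over all genes. An unadjusted p under 0.05 was reached by 5 of the 9, all of them higher, and by 27.6% of all genes.

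**Figure D1:**
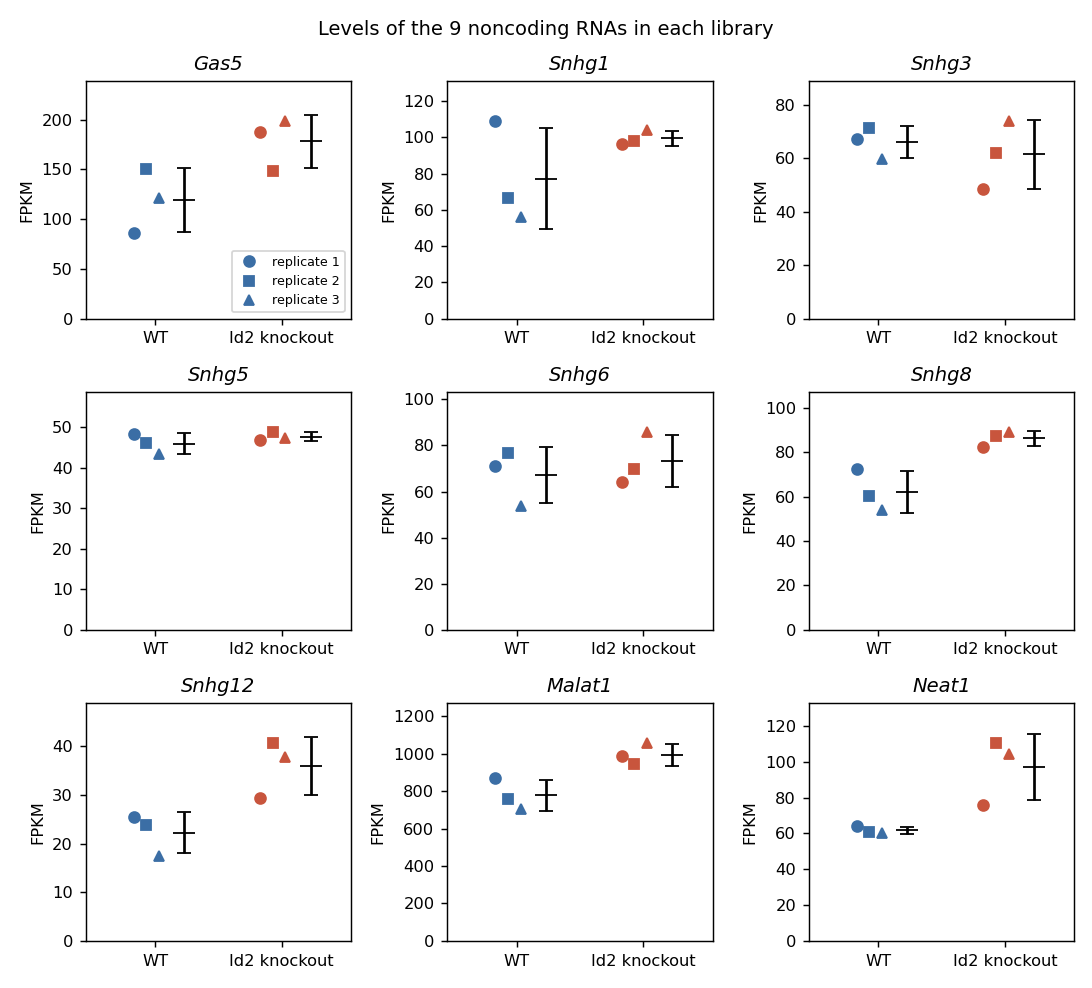
FPKM of the 9 noncoding RNAs in each library, 1 panel per gene with its own axis from 0. Blue symbols are WT and red symbols knockout, the symbol shape gives the replicate number and the bars give the mean and SD. The groups do not overlap for Neat1, Malat1, Snhg8 and Snhg12 and overlap for the other 5.

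Malat1 was by far the most abundant, with a mean of 779 FPKM in WT and 995 in knockout, and it ranked 81 of the tested genes by mean FPKM. Gas5 came next with 119 and 178 FPKM. In WT the library values of Gas5 and Snhg1 overlapped, as did those of Snhg1, Snhg6, Snhg3, Snhg8 and Neat1 from each to the next in order of level. Snhg5, at 46 FPKM, lay below these without overlap and Snhg12, at 22.2 FPKM, lay below Snhg5. In knockout Gas5 no longer overlapped Snhg1, and the order was Snhg1, Neat1, Snhg8, Snhg6, Snhg3 and Snhg5, each overlapping the next, with Snhg12 lowest again.

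Gas5, on chromosome 1 from 161034601 to 161038539 (plus strand), is the host studied most for growth arrest. Its level was 85.90, 149.96 and 121.40 FPKM in the WT libraries and 187.41, 148.44 and 198.89 in knockout (119 ± 32.1 and 178 ± 26.4). The groups overlapped by a narrow margin, since knockout replicate 2 lay just under WT replicate 2. The log2 fold change was 0.58 (SE 0.184) and did not pass (adjusted p = 0.0724, edgeR). It passed without WT replicate 2 (0.76, edgeR adjusted p = 0.0352) or without knockout replicate 2 (0.71, edgeR adjusted p = 0.0228). The transcript that the authors counted has a listed length of 2554 bases. Its match in GENCODE M21, Gas5-218, is of the retained intron type with 4 exons. Of the 8 small nucleolar RNAs inside Gas5, 5 lie in exons of that model, so reads from unspliced Gas5 RNA count in its level.

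Snhg12 (chromosome 4, 132308678 to 132311024, plus strand) hosts Snora16a, Snora44, Snora61 and Snord99. Its FPKM was 25.43, 23.88 and 17.39 in the WT libraries and 29.28, 40.68 and 37.73 in knockout (22.2 ± 4.27 and 35.9 ± 5.92). This was the largest ratio of means among the hosts, 1.61-fold, with every knockout library above every WT library. By edgeR, the difference did not pass the test (log2 fold change 0.67, SE 0.206, adjusted p = 0.0636). Snhg12 was also the host with the fewest reads, 84 to 182 expected counts per library.

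Snhg8 (chromosome 3, 123507552 to 123508336, minus strand) hosts Snora24. Values were 72.58, 60.23 and 53.89 FPKM in WT and 82.58, 87.25 and 89.34 in knockout (62.2 ± 9.51 and 86.4 ± 3.46), again without overlap. By edgeR the log2 fold change was 0.46 (SE 0.138) with an adjusted p of 0.0605, and without WT replicate 1, the highest WT library, it was 0.62 and passed (adjusted p = 0.0155). The counted model is 785 bases, the whole span of the gene in 1 exon with Snora24 inside it, so spliced and unspliced Snhg8 RNA cannot be told apart in this value.

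Snhg1 (chromosome 19, 8723487 to 8726326, plus strand) holds 8 small nucleolar RNAs, all in introns of its match in GENCODE M21. The counted model has a listed length of 476 bases. It was at 109.21, 66.34 and 56.33 FPKM in WT and at 96.23, 97.86 and 104.07 in knockout (77.3 ± 28.1 and 99.4 ± 4.14). A single library, WT replicate 1, lay above all the knockout libraries, and the other two WT libraries lay below them all. The log2 fold change was 0.34 (SE 0.23, adjusted p = 0.381, edgeR), and without WT replicate 1 it was 0.72 and passed (adjusted p = 0.015, edgeR). WT replicate 1 was at the same time the library with the lowest Gas5, so that Gas5 made up 17.9% of the summed host FPKM there and 26.8% to 33.8% in the other 5 libraries.

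Snhg3, Snhg5 and Snhg6 did not separate the groups. Snhg5 (chromosome 9, 88521052 to 88522897, minus strand) varied least, at 48.42, 46.12 and 43.36 FPKM in WT and 46.73, 48.87 and 47.32 in knockout (log2 fold change 0.04, SE 0.11, adjusted p = 0.87, edgeR). Snhg6 (chromosome 1, 9942025 to 9944118, minus strand), host of Snord87, was at 70.90, 76.81 and 53.76 FPKM in WT and 64.18, 69.70 and 85.92 in knockout (log2 fold change 0.11, SE 0.181, adjusted p = 0.74, edgeR). Snhg3 (chromosome 4, 132351933 to 132353686, minus strand), host of Snora73a and Snora73b, was the only one with a mean below WT. It was at 67.35, 71.35 and 59.75 FPKM in WT and at 48.36, 61.95 and 74.13 in knockout, and its log2 fold change was -0.12 (SE 0.175, adjusted p = 0.705, edgeR). Knockout replicate 1 held the lowest and knockout replicate 3 the highest Snhg3 value of all 6 libraries.

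Summed over the 7 hosts, the level was 479.8, 494.7 and 405.9 FPKM in the WT libraries and 554.8, 554.7 and 637.4 in knockout, means of 460 ± 47.6 and 582 ± 47.7. Every knockout library lay above every WT library. Gas5 alone was between 17.9% and 33.8% of this sum. WT replicate 3 was the lowest WT library for 8 of the 9 RNAs, Gas5 being the exception. The spread within a group differed between hosts. In WT the coefficient of variation ran from 5.51% for Snhg5 to 36.3% for Snhg1, and in knockout from 2.32% for Snhg5 to 21% for Snhg3, with Snhg1 at 4.16%.

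**Figure D2:**
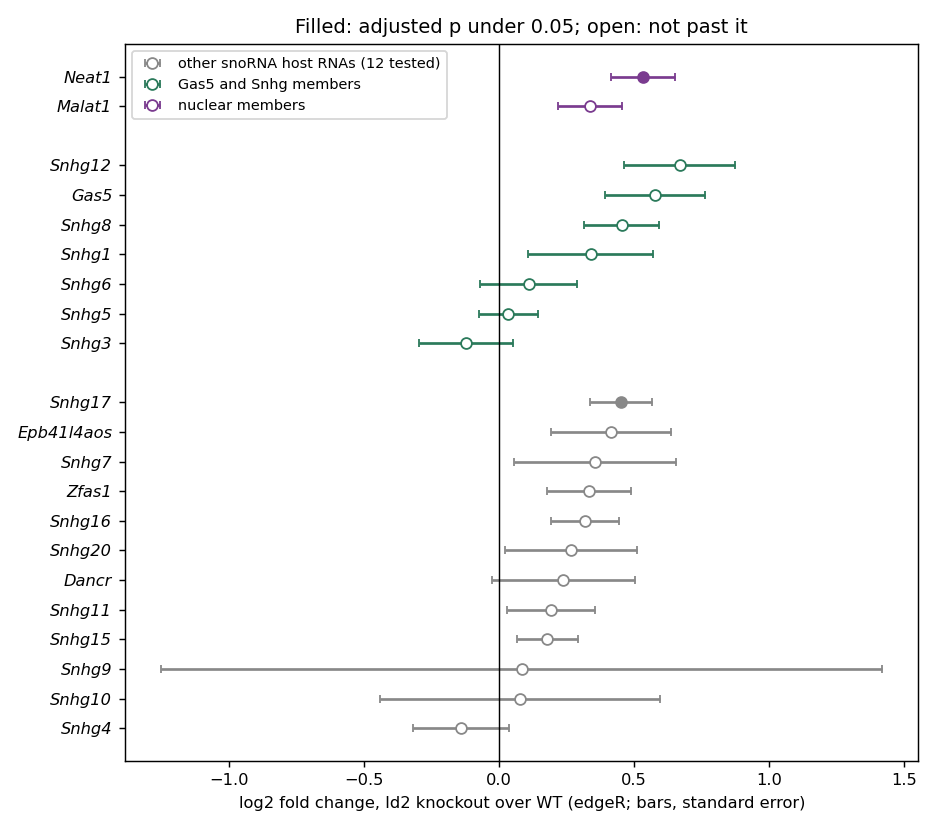
Log2 fold changes of the 9 noncoding RNAs and of the tested genes on the list of other small nucleolar RNA hosts, knockout over WT, by edgeR. Points are estimates, bars are standard errors, and filled points passed an adjusted p of 0.05. Neat1 and Snhg17 are filled, and Snhg3 and Snhg4 lie below 0.

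Malat1 (chromosome 19, 5795690 to 5802672, minus strand) was at 870.24, 759.34 and 706.63 FPKM in WT and 985.44, 942.60 and 1057.95 in knockout (779 ± 83.5 and 995 ± 58.3). The groups did not overlap. Its log2 fold change of 0.34 (SE 0.12) did not pass the test (adjusted p = 0.1, edgeR), while without WT replicate 1, the highest WT library, it did (adjusted p = 0.0307, edgeR). Malat1 took 0.617%, 0.538% and 0.501% of all expected counts in WT and 0.698%, 0.668% and 0.750% in knockout, which made it the gene with the 5th highest mean count. Mascrna, the small RNA cut from the end of Malat1, was not among the genes listed.

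Neat1 (chromosome 19, 5824708 to 5845480, minus strand) lies 22036 bases from Malat1. It was at 64.09, 60.94 and 60.40 FPKM in WT and 75.85, 110.47 and 104.16 in knockout, means of 61.8 ± 1.99 and 96.8 ± 18.4. The WT libraries lay within a few FPKM of each other, while knockout replicate 1 stayed well below the other two knockout libraries. On counts the log2 fold change was 0.53 (SE 0.118, adjusted p = 0.0164, edgeR), and in FPKM the ratio of means was 1.57. The call was lost without WT replicate 2 (0.48, adjusted p = 0.0612, edgeR), without WT replicate 3 (adjusted p = 0.0641) and without knockout replicate 3 (0.46, adjusted p = 0.0888). With the level of B cell markers as a covariate the log2 fold change was 0.53 (adjusted p = 0.0252, edgeR).

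Neat1 is the only one of the 9 for which the files list more than 1 transcript and a length that differs between libraries, so the mix of its transcripts can be read from that length. GENCODE M21 matches them to Neat1-202 of 3004 bases and Neat1-201 of 20771 bases, which start at nearly the same place. They differ in where they end, and Neat1-202 has 2 exons in this annotation while Neat1-201 has 1. Their last 30 bases show the different ends. The short transcript ends behind a polyadenylation signal, AATAAA, in capitals, and the long one in a run rich in A, in capitals, where a structure of the RNA and no poly(A) tail is known to protect the end.
Neat1-202 (chr19:5842307-5842336, minus strand): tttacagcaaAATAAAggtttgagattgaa
Neat1-201 (chr19:5824708-5824737, minus strand): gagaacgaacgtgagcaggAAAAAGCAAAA

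The listed length was 4368.88, 4267.09 and 4592.01 bases in the WT libraries and 4428.19, 3868.20 and 4183.21 in knockout (4409 ± 166 and 4160 ± 281, 2-sided exact permutation p = 0.3, the smallest possible being 0.1). Taken as an average of these 2 lengths weighted by abundance, it puts the long transcript at 7.68%, 7.11% and 8.94% of Neat1 molecules in WT and 8.02%, 4.86% and 6.64% in knockout. By reads its share was 36.5%, 34.6% and 40.4% in the WT libraries and 37.6%, 26.1% and 33% in knockout. The shares overlapped between groups (exact permutation p = 0.3 for each). They are approximate, because no label or header gives the version of the transcript records that the authors used. Poly(A) selection is not given either, so the share of the long transcript in the libraries need not be that in the cells.

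By this division the short transcript was at 59.2, 56.6 and 55 FPKM in WT and 69.8, 105 and 97.3 in knockout (56.9 ± 2.1 and 90.7 ± 18.6). The groups did not overlap, and the exact permutation p was 0.1, the smallest that 3 against 3 can give. The long transcript was at 4.92, 4.33 and 5.4 FPKM in WT and 6.08, 5.37 and 6.91 in knockout (4.89 ± 0.535 and 6.12 ± 0.771, exact permutation p = 0.2). Its groups overlapped by knockout replicate 2, which lay just under WT replicate 3. Knockout replicate 2 held the highest short and the lowest long level of the knockout libraries.

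**Figure D3:**
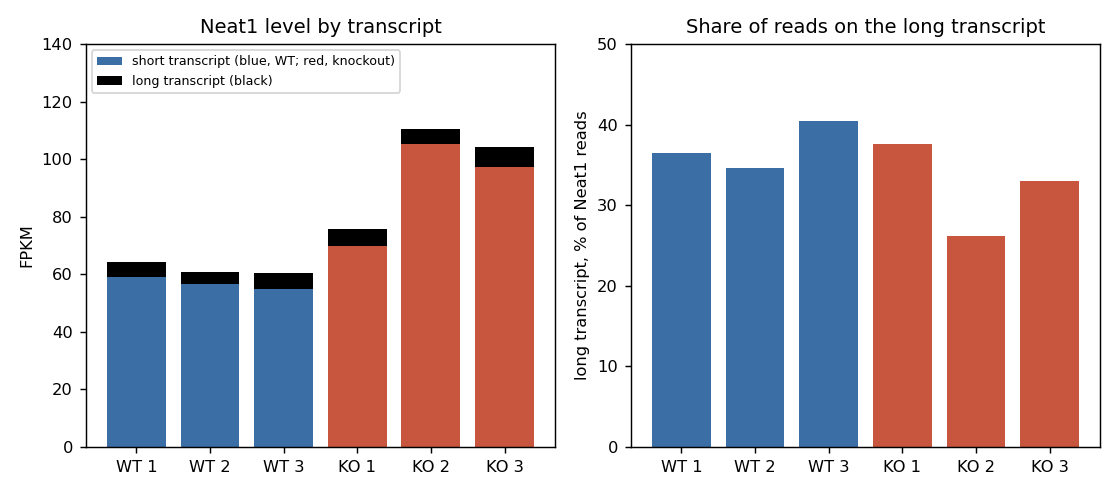
Neat1 in each library, divided between its transcripts by the listed length. The left panel stacks the short (coloured, blue WT and red knockout) and the long transcript (black) in FPKM; the right panel gives the percent of Neat1 reads on the long transcript, which is 34.6 to 40.4 in WT and 26.1 to 37.6 in knockout.

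The RefSeq table places 26 small nucleolar RNAs and Mascrna inside these genes: 8 in Gas5, 8 in Snhg1, 4 in Snhg12, 2 each in Snhg3 and Snhg5, 1 each in Snhg6 and Snhg8, and none in Neat1. Of these 27, 20 lie in introns and 7 in exons of the GENCODE M21 match of the host, which can differ from the counted model. The files list 9 of them, with 597 expected counts over all 6 libraries. Snord47, from an intron of Gas5, is a C/D small nucleolar RNA. Its 77 bases in GENCODE are given because they show the C box (TGATGA) and the D box (CTGA), in capitals, by which this class is recognised.
Snord47-201 (chr1:161038082-161038158, plus strand): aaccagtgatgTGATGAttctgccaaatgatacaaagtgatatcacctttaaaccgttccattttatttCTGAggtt

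Snord47 had 15 counts in all, against 1850 to 3959 per library for its host. The H/ACA RNAs Snora73a and Snora73b in Snhg3 had 169 and 266 counts in all, with log2 fold changes of 0.56 and 0.41 (adjusted p = 0.377 and 0.336, edgeR). They are near-identical copies whose reads may be divided between them, and summed they had 71, 53 and 64 counts in WT and 63, 92 and 92 in knockout, groups that overlap. Snord22 in Snhg1 had 111 counts (log2 fold change 0.27, adjusted p = 0.694, edgeR). Whether the libraries keep RNAs of this size is not stated in the labels, so these counts are no measure of the mature small RNAs.

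The genes beside the hosts were compared on the same scale. Rcc1, which encodes the nucleotide exchange factor of the GTPase Ran and lies 6183 bases from Snhg3, fell in the knockout. It was at 19.27, 18.76 and 28.06 FPKM in WT and 9.95, 14 and 9.53 in knockout (log2 fold change -0.997, SE 0.191, adjusted p = 0.00811, edgeR), while Snhg3 overlapped between groups. Slc3a2, the heavy chain of amino acid transporters, lies 118 bases from Snhg1 and was at a log2 fold change of 0.12 (edgeR adjusted p = 0.534). Trnau1ap, 739 bases from Snhg12, had one of -0.24 (adjusted p = 0.248), and Prss12, 950 bases from Snhg8, one of 0.79 (adjusted p = 0.146). Zbtb37 (0.18, adjusted p = 0.662) overlaps Gas5, and Mcmdc2 (0.35, adjusted p = 0.162) overlaps Snhg6, so with strand use not given, reads of the pairs cannot be told apart. Frmd8 (0.28, adjusted p = 0.235), 5494 bases from Neat1, did not pass either.

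Of 12 tested RNAs on a list of 14 other small nucleolar RNA hosts, 1 rose (3.14% of all genes) and 0 fell (8.77%). Of the 12, 11 had a log2 fold change above 0 (51.9% of all genes), with a median of 0.25. Snhg17 went from 10.9 ± 0.925 to 15 ± 1.2 FPKM (log2 fold change 0.45, adjusted p = 0.0314, edgeR), a call that was lost when any library but knockout replicate 1 was left out (adjusted p 0.0593 to 0.127). Snhg16 (0.32, adjusted p = 0.134), Zfas1 (0.34, adjusted p = 0.195) and Epb41l4aos (0.42, adjusted p = 0.26) had log2 fold changes near the median of the 9 RNAs and did not pass (edgeR). Snhg15, the most abundant of the list at 146 and 167 FPKM, had one of 0.18 (adjusted p = 0.348). Groups did not overlap, with knockout higher, for 4 of the 12, against 15.3% of all genes.

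Genes whose proteins act with these RNAs were counted from lists of their own, by edgeR. For each count of calls on these and the following lists, the shares over all tested genes were 3.14% higher and 8.77% lower. Of 18 tested proteins of the small nucleolar ribonucleoprotein particles and their assembly, 0 rose and 2 fell, with a median log2 fold change of 0.00. They were Nhp2, a core protein of H/ACA particles (91.4 to 69.9 FPKM, -0.40, adjusted p = 0.0302), and Ruvbl2, an assembly ATPase (47.6 to 29.4 FPKM, -0.70, adjusted p = 0.0333). Nhp2 passed only without WT replicate 2 or without knockout replicate 2 (in the other fits adjusted p 0.0681 to 0.129), and Ruvbl2 passed only without WT replicate 1 among the fits that left out 1 library. In the fit with a B cell covariate 0 of the 18 passed. Of 20 paraspeckle proteins 0 passed by edgeR, 1 was lower by DESeq2, and 6 had an unadjusted p under 0.05, all of them lower, where 27.6% of all genes reached that p. Their median was -0.18, and 5 of 20 had a log2 fold change above 0, against 51.9% of all genes. Without overlap 7 lay lower and 1 higher, against 16.8% and 15.3% of all genes. Tardbp (-0.35, adjusted p = 0.0632), Hnrnpa1 (-0.30, adjusted p = 0.0636) and Hnrnpm (-0.27, adjusted p = 0.102) were among those with the smallest p.

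Of 24 genes of nuclear speckles and splicing 2 rose and 0 fell, with a median of 0.01. Son, a scaffold protein of speckles, went from 53.7 to 70.1 FPKM (0.37, adjusted p = 0.0338, edgeR), and Clk1, a kinase of splicing factors, from 446 to 590 FPKM (0.35, adjusted p = 0.0468, edgeR). Clk1 passed in none of the 6 fits that left out 1 library (adjusted p 0.0555 to 0.179), and Son passed only without knockout replicate 1 or 2 (adjusted p 0.0634 to 0.171 in the other fits). With the B cell covariate 1 of the 24 passed, again higher.

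Nonsense-mediated decay, the route that degrades Gas5, was covered by 19 factors. Of these 2 rose and 1 fell, with a median of 0.08. Smg1, the kinase that starts decay, went from 10.7 to 14.6 FPKM (0.43, adjusted p = 0.0138, edgeR), and Smg9, its regulatory partner, from 24.7 to 35.8 FPKM (0.52, adjusted p = 0.0225, edgeR). Smg1 did not pass without WT replicate 2 or 3 or knockout replicate 3 (adjusted p 0.0546 to 0.0773), nor Smg9 without WT replicate 1 or 3 or knockout replicate 3 (adjusted p 0.0537 to 0.116). Magohb, a subunit of the exon junction complex, fell from 22.6 to 11.8 FPKM (-0.92, adjusted p = 0.00851, edgeR) and passed with each library left out.

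Of 36 genes on a list made for translation genes with a 5′ TOP element 0 rose and 1 fell, against 3.14% and 8.77% of all genes. The element was not checked gene by gene. A log2 fold change above 0 was found in 28 of the 36, against 51.9% of all genes, with a median of 0.07. Without overlap 12 lay higher and 2 lower, against 15.3% and 16.8% of all genes. The summed FPKM of the 36 was 35010, 36950 and 35490 in the WT libraries and 37480, 38990 and 39320 in knockout. The gene that fell was Nap1l1, a histone chaperone (88.4 to 53.7 FPKM, -0.59, adjusted p = 0.0103, edgeR), which did not pass without WT replicate 3 or knockout replicate 1 (adjusted p = 0.0506 and 0.0508). Translation of TOP mRNAs depends on mTOR, and of 21 genes of the mTOR pathway and growth arrest 3 rose and 1 fell, with a median of 0.02. Rictor (0.50, adjusted p = 0.00962, edgeR), the defining subunit of mTOR complex 2, Sesn3 (0.65, adjusted p = 0.0123), a stress-induced mTOR inhibitor, and Rptor (0.38, adjusted p = 0.0432), the defining subunit of complex 1, rose. Ddit4, another mTOR inhibitor, fell (-0.61, adjusted p = 0.0114, edgeR). Rptor passed in none of the 6 fits that left out 1 library (adjusted p 0.0728 to 0.116). Without WT replicate 3 or knockout replicate 3 neither Rictor (adjusted p = 0.0504 and 0.0574) nor Sesn3 (adjusted p = 0.0568 and 0.0653) passed, and Ddit4 did not pass without knockout replicate 3 (adjusted p = 0.0635). With the B cell covariate 2 of the 21 were higher and 2 lower.

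The B cell marker level and the cell cycle genes vary beside the 9 RNAs. With the B cell level as a covariate the log2 fold change was 0.56 for Gas5, 0.14 for Snhg1, 0.35 for Snhg8, 0.65 for Snhg12 and 0.21 for Malat1. Without it the values were 0.58, 0.34, 0.46, 0.67 and 0.34. None of these 5 passed with the covariate (edgeR adjusted p = 0.143, 0.716, 0.136, 0.101 and 0.173), and none had passed without it. Snhg3, Snhg5 and Snhg6 had log2 fold changes of -0.17, -0.01 and 0.0 with it, against -0.12, 0.04 and 0.11 without. The cell cycle genes were lower in all 3 knockout libraries, and their part in the levels of the 9 RNAs was not tested. Of macrophage and neutrophil markers, 5 and 2 of them tested, edgeR called 0, with 2 and 1 at an unadjusted p under 0.05 and 1 and 0 called by DESeq2. No erythroid marker passed the filter, and the summed erythroid FPKM was 0, 0.34 and 0.2 in the WT libraries and 10.67, 0 and 12.33 in knockout. Of the other lists, CD4 T cell markers, 6 tested, had 1 call higher (Ctla4) and 1 lower (Tnfrsf4). NK cell markers had 1 of 5 lower (Gzma) and gamma delta T cell markers 1 of 2 higher (Cd163l1). Dendritic cell markers had 3 of 5 lower (Itgax, Zbtb46 and Bst2) and stroma 1 of 2 lower (Sparc). In that order 3, 2, 1, 1 and 1 of the tested markers had a log2 fold change above 0. The dendritic one was Ccr7, its list's most abundant (1744 to 2198 FPKM, 0.32, adjusted p = 0.122, edgeR). Whether RNA of these markers came from other cell types or from the CD8+ T cells was not tested. Itgax and Sparc reached an FPKM of 1 only in WT libraries, so they passed the filter only through the group where they are high. Their calls are given as a description, and neither gene was tested with a WT library left out. With 1 library left out, dendritic cell markers had 1 to 3 calls lower, Itgax being untested in part of these fits. NK cell markers had 1 or 2 lower and, without WT replicate 1, also 1 higher, and CD4 T cell markers 0 or 1 in each direction. Cd4 was at 2.36 FPKM in WT libraries and at 1.48 in those of the knockout.

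The genes with the most similar course over the 6 libraries were sought among the 7739 genes with a mean of at least 5 FPKM, by the root mean square difference of log2(FPKM + 1) after centring. Nearest to the summed hosts were Rhox8 (0.0234), Atg10 (0.0524) and Armcx2 (0.0585). Nearest to Malat1 were Armcx2 (0.0395), Ints6l (0.0462) and Tmem234 (0.0481). Nearest to Neat1 were Atg2a (0.0789), Ranbp10 (0.0876) and Dtx3 (0.092). The match of Armcx2 to both rests on 6 libraries and describes only these.

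**Figure D4:**
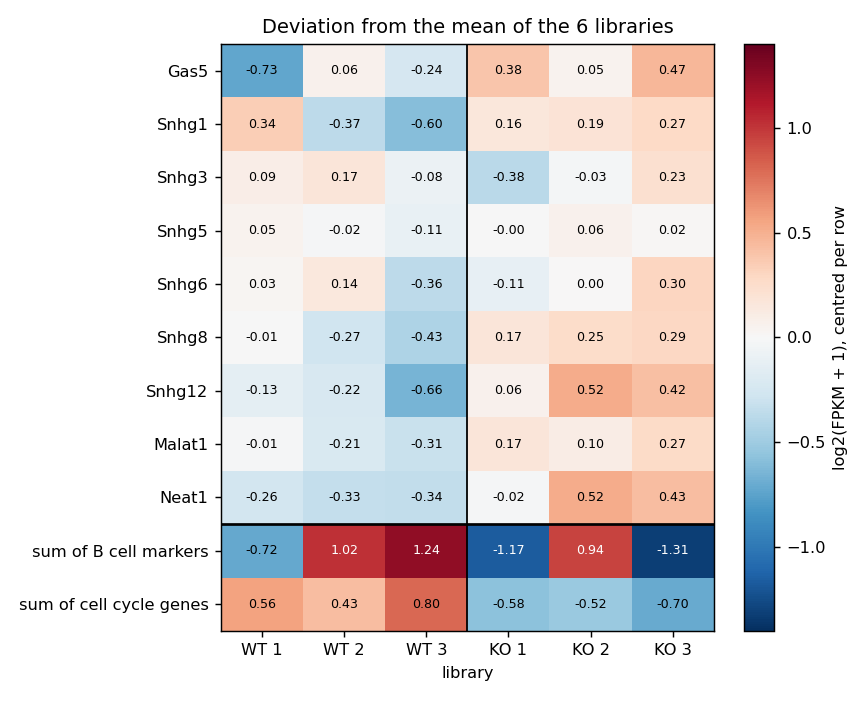
Deviation of log2(FPKM + 1) from its mean over the 6 libraries (columns), for the 9 noncoding RNAs above the line and for the summed B cell markers and cell cycle genes below it. Neat1, Malat1, Snhg8 and Snhg12 are higher in each knockout column, right of the vertical line, than in each WT column, Snhg5 stays near 0, and the B cell row is high in WT replicates 2 and 3 and in knockout replicate 2.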

How the data were processed

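RNA from 6 libraries of sorted CD8+ T cells, 3 WT and 3 knockout, was extracted with the RNeasy Micro Kit and sequenced after a standard Illumina library preparation, per the labels' protocols. Poly(A) selection and strand are not given in the sources used here. CASAVA, Bowtie2 and RSEM with the build mm10 are named, without versions, in the submitters' processing notes. Per the file headers, the authors deposited for each gene an expected count, which divides reads that match several genes, an FPKM value, which divides by length and library size, and a length, which is averaged over transcripts. A gene missing from a table was taken as 0.

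Tables were joined by NCBI gene number, and 16707 of 16749 had a symbol in RefSeq. Expected counts were rounded, scaled by TMM and tested with edgeR 4.0.16 (quasi-likelihood, R 4.3.3, 2-sided) on the 10890 genes that reached an FPKM of 1 in 3 or more libraries, with Benjamini-Hochberg adjustment. The biological coefficient of variation was 0.156. The filter left out 5859 genes, none of the 9. Fold changes of FPKM are ratios of means. The 9 RNAs, the gene lists and the marker lists were chosen with earlier results of these data known. Named were the 9, up to 4 genes per list with the smallest p, neighbouring genes, small RNAs inside the 9, similar profiles and Id2, and of the marker lists those called or needed beside a result. Some genes that this rule takes are left out of the text. Levels of the Neat1 transcripts came from the listed length and 2 GENCODE lengths. Alternatives were DESeq2 1.42.0, its size factors, limma 3.58.1 on log2(FPKM + 1) with pseudocounts of 0.5 and 0.1 too, no filter, an FPKM minimum of 5, leaving out the 50 most abundant genes, the replicate block, a B cell covariate and each library left out. The edgeR script was tested on simulated data. No libraries were duplicates (chi-square per degree of freedom 5.19 to 16.3). Python 3.11.15 with pandas 2.3.3 and matplotlib 3.10.9 made the tables and figures.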

Additional observations from a re-analysis of the deposited data

How the results depend on the processing

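Depth limits Snhg12 most among the hosts, with 84 to 182 counts per library, and the small RNAs inside the hosts more so. The count of the 9 RNAs called higher was 1 by edgeR, 5 by DESeq2 (Gas5, Snhg8, Snhg12, Malat1 and Neat1), 3 by limma with a pseudocount of 1, 0.5 or 0.1 (Neat1, Snhg8 and Snhg12) and 4 without the filter (Gas5, Snhg8, Snhg12 and Neat1). Leaving out 1 library gave 0 to 4, with 0 without WT replicate 3 or knockout replicate 3, 2 without knockout replicate 2 and 4 without WT replicate 1, and the count called lower was 0 under every alternative. Genes higher numbered 342 and 76 to 484 with a library left out, the lowest without knockout replicate 3 and 101 without WT replicate 3. Genes lower numbered 955 and 489 to 1081, the lowest without WT replicate 3. The log2 fold change of Neat1 ranged from 0.46 to 0.65 over 16 alternatives and passed in 13. That of Gas5 (0.42 to 0.76), Snhg8 (0.35 to 0.62), Snhg12 (0.51 to 0.82) and Malat1 (0.21 to 0.46) stayed above 0 in all of theirs. Snhg3 (-0.29 to 0.03), Snhg5 (-0.02 to 0.11) and Snhg6 (-0.04 to 0.20) crossed 0. The length of Neat1 implied by counts and FPKM differed by -256 bases between groups, and by -393 to -107 with a library left out. The cause of these shifts was not tested.

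With the replicate number as a block, 1 of the 9 was higher (Neat1, edgeR adjusted p = 0.0314), with 295 genes higher and 888 lower, and 0 of the tested proteins of small nucleolar particles, of nuclear speckles and of splicing passed. Libraries of the same number had correlations of 0.12, 0.07 and -0.03 in their deviations from the group means. Those of different number had -0.19 to 0.13. These values show no pairing by number, but with 3 libraries per group they cannot exclude it.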

Other observations

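Of 15 tested RNAs on a list of 22 other long noncoding RNAs, 2 rose and 1 fell in the knockout by edgeR. Over all tested genes 3.14% rose and 8.77% fell. The median log2 fold change of the 15 was 0.17. Rn7sk, the 7SK RNA that holds the elongation factor P-TEFb inactive, went from 33.1 ± 4.9 to 76.4 ± 18.1 FPKM (log2 fold change 1.19, adjusted p = 0.00736, edgeR) and passed with each library left out. Lncpint went from 54.5 ± 9.4 to 84.6 ± 9.71 FPKM (0.67, adjusted p = 0.017, edgeR) and did not pass without WT replicate 2 or knockout replicate 3 (adjusted p = 0.0535 and 0.0851). Oip5os1, also called Cyrano, fell from 24.7 ± 2.52 to 14.5 ± 3.18 FPKM (-0.79, adjusted p = 0.0131, edgeR) and did not pass without knockout replicate 1 or 3 (adjusted p = 0.0557 and 0.0687). Rpph1, the RNA of RNase P, was at 23 FPKM in WT and 10 in knockout (adjusted p = 0.0574, edgeR). Rn7sk had 74 to 227 expected counts per library. Poly(A) selection and the sizes of RNA kept are not given, so how far these counts measure Rn7sk and Rpph1 in the cells is not known.

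Morrbid, a long noncoding RNA known for its control of Bcl2l11 in short-lived myeloid cells, gave different sizes of change on its 2 scales. In FPKM its WT libraries held 17.97, 11.2 and 14.97 and its knockout libraries 1.51, 3.81 and 2.7, and the groups did not overlap. On counts, which were 145.49, 86.03 and 124.05 in WT and 29.24, 71.8 and 49.17 in knockout, the log2 fold change was -1.16 and did not pass (adjusted p = 0.0512, edgeR). The length listed for Morrbid was 982.52, 922.37 and 1013.89 bases in the WT libraries and 2408.43, 2435.8 and 2339.11 in knockout, so the transcripts to which its reads were assigned differed between the groups. It was singled out after its values were seen, and which of its transcripts the difference comes from was not tested.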
